A study of Mus musculus with 12 samples.

Results

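A set of 10 genes that control the G1 phase of the cell cycle was followed in mouse mesenchymal stromal cell preparations from marrow and bone. They are the cyclin-dependent kinase (CDK) inhibitors Cdkn1a, Cdkn1b, Cdkn1c, Cdkn2a, Cdkn2b and Cdkn2c, the tumour suppressor gene Trp53 with its inhibitor Mdm2, and the cyclin D genes Ccnd1 and Ccnd2. They were taken by symbol from the 53819 entries of the count table, all 10 were found, and all 10 were among the 15698 genes that passed the filter on low counts. The rule lists them by symbol and uses no measured values, but the genes were chosen with earlier results of these data known.

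RNA was sequenced from 12 libraries of wild-type (WT) mouse cells, 3 per group. BM sorted cells were marrow cultures, grown on collagen I from hind limbs and pelvis, passaged and sorted by flow cytometry, which kept cells with CD51 and Sca-1 and without CD31, CD45, Ly6C or F4/80. BM nonsorted cells were the same kind of culture after the first passage, without the sort. BAC depleted cells were bone-associated cells (BAC), released from hind-limb bone fragments with collagenase I and passed over magnetic beads that remove CD45, Ly6C and F4/80 positive cells. BAC nondepleted cells were used without that step. Cells were kept in alpha MEM without ascorbic acid under hypoxia. The sources used here do not give the age and sex of the mice, or the time the bone-associated cells spent in culture. Between marrow and bone the tissue, its digestion, the culture and the way of purification change together and cannot be told apart.

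Cells pass from G1 into DNA synthesis when cyclin D bound to CDK4 or CDK6, and then cyclin E bound to CDK2, phosphorylate the retinoblastoma protein and release E2F factors. The INK4 inhibitors (Cdkn2a, Cdkn2b, Cdkn2c) bind CDK4 and CDK6 themselves, while the CIP/KIP inhibitors (Cdkn1a, Cdkn1b, Cdkn1c) bind cyclin-CDK complexes and mainly block CDK2. The transcription factor p53, encoded by Trp53, induces Cdkn1a after DNA damage and also induces Mdm2, whose product marks p53 for destruction. Cdkn2a encodes p16INK4a and, from another first exon and reading frame, p19ARF, which holds back Mdm2. In stromal cells kept in culture these inhibitors are known for their part in quiescence and senescence.

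The start regions of the genes whose control is best known are shown because the counts are sums over all starts of a gene. Sequences are from RefSeq, build GRCm38.p6, and run from 250 bases before to 50 after an annotated start. Entries were matched by symbol for 7 of the 10 genes (not Cdkn1c, Ccnd1 and Ccnd2). Both starts of Cdkn1a, the start of Mdm2, and both starts of Cdkn2a are given, the last because ARF and INK4a transcripts begin there and are not separated by the counts. Capitals mark matches on either strand. The p53 match is to the decamer of a half-site, not to a full response element. The E2F letters are TTTCCCGC, TTTCGCGC, TTTGCCGC or TTTGGCGC. Also marked are the GC box (GGGCGG), the TATA box (TATAAA) and the E-box (CACGTG).
Cdkn1a upstream start, chr17:29090729-29091028, plus strand: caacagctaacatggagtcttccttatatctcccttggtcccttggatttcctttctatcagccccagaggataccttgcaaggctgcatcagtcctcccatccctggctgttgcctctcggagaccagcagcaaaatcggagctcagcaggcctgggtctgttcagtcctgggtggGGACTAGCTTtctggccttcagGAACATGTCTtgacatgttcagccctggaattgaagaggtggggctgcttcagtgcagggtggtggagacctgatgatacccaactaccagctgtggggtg
Cdkn1a downstream start, chr17:29093519-29093818, plus strand: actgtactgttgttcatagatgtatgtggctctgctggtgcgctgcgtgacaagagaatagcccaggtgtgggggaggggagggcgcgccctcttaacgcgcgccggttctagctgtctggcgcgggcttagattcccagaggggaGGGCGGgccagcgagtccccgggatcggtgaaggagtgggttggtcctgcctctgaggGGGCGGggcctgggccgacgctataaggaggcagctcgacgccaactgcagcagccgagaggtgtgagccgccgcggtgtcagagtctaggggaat
Mdm2 start, chr10:117710709-117711008, minus strand: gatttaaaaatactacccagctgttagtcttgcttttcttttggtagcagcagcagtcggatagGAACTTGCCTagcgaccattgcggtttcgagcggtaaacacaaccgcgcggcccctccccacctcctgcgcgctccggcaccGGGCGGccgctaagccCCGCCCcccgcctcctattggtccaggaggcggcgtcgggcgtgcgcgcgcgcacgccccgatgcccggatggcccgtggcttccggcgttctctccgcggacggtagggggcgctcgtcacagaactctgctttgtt
Cdkn2a upstream start, chr4:89294570-89294869, minus strand: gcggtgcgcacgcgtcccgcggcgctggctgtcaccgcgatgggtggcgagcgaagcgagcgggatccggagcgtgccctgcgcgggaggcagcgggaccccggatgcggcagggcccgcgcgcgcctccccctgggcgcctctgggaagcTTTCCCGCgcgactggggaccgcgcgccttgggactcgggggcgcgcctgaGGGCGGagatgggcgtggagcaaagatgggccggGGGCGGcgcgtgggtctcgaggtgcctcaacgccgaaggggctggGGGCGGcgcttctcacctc
Cdkn2a downstream start, chr4:89282143-89282442, minus strand: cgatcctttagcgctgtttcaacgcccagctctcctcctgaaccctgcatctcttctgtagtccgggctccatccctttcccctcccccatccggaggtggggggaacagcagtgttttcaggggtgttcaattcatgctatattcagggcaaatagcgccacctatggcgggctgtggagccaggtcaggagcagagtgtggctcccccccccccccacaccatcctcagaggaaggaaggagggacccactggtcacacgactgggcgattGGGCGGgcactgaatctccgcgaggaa

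The upstream start of Cdkn1a held 2 p53 half-site decamers, beginning 73 and 51 bases before the start. The Mdm2 window held 1 such half-site, at 186 bases before. A further half-site lay 75 bases before the start of Trp53. Of 32851 start regions of this length, 8.36% hold a p53 half-site. The upstream start of Cdkn2a held 1 E2F match, 99 bases before the start, a match that 2.26% of start regions hold, and 3 GC boxes. Its downstream start held 1 GC box, which 35.7% of start regions hold. The TATA box occurs in 13.6% and the E-box in 7.15% of start regions, and neither was in the 5 windows shown. A match describes letters only and does not show that a factor binds.

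Library totals were 27937709 to 32164725 counts, and levels are given as CPM (a gene's counts scaled to a common library total) on library sizes scaled by TMM. Libraries of BAC depleted were the least alike, with correlations of log2 CPM of 0.940 to 0.947, against 0.965 to 0.992 in the other 3 groups. BAC depleted 1 held 43406 counts of the female transcript Xist and 0 counts of 4 Y-linked genes, while no other library held more than 16 counts of Xist, and it is the 1 library with this pattern. Mitochondrial genes took 1.82% to 2.62% of the counts in BAC depleted libraries and 1.08% to 1.36% elsewhere. In BAC depleted 3 the matrix gene Thbs1 took 8.11% of the counts. The 15 macrophage markers summed to 13.8 to 45.2 CPM in BM sorted and 5540 to 6279 CPM in BM nonsorted libraries. They summed to 18.9 to 67.4 CPM in BAC depleted, with Ptprc, C1qa, C1qb, Tyrobp, Itgam and Msr1 at 0 counts, and to 13875 to 15797 CPM in BAC nondepleted libraries. Stromal markers summed to at least 28197 CPM in every group. Endothelial markers summed to at most 9.41 CPM, and lymphoid and neutrophil markers to at most 0.477 CPM. Erythroid and megakaryocyte markers summed to at most 1.96 CPM in the purified groups, 46.1 to 52.4 CPM in BM nonsorted and 83.9 to 135 CPM in BAC nondepleted.

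Of the 10 genes, 0 passed the test on the marrow sort (6.23% of all genes), 6 on the bone depletion (37.3%) and 6 between the unpurified cultures (31.7%). Ccnd2 (4.04-fold), Cdkn1c (3.23-fold), Cdkn2b (2.06-fold), Cdkn1b and Mdm2 (1.63-fold each) were higher after depletion, and Cdkn2c was lower (1.67-fold). Between the purified groups, Trp53 was higher and Cdkn1c lower in BM sorted than in BAC depleted cells. Calls rest on edgeR's quasi-likelihood test and an adjusted p (Benjamini-Hochberg, over all genes tested) under 0.05.

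Of the 10 genes, 0 were called between BM sorted and BM nonsorted, where 6.23% of all genes were called (0.166% higher and 6.06% lower), and 1 had an unadjusted p under 0.05. The DESeq2 Wald test called 1, Cdkn1b. Between BAC depleted and BAC nondepleted 5 were higher and 1 lower, with 37.3% of all genes called (17.4% higher and 19.9% lower). Between BM sorted and BAC depleted 1 was higher and 1 lower, with 47.4% of all genes called (22.9% higher and 24.6% lower). Between BM nonsorted and BAC nondepleted 4 were higher and 2 lower, with 31.7% of all genes called (14.9% higher and 16.8% lower). The difference between the sorting and the depletion effect was called for 1 gene, Ccnd2, with 8.06% of all genes called (5.08% higher and 2.99% lower for the sort). The libraries of the groups did not overlap for 1 of 10 genes on sorting (28.7% of all genes), 6 on depletion (46.3%), 2 between the purified groups (52.8%) and 7 between the unpurified groups (56.0%). The median log2 fold change of the 10 genes was 0.71 on depletion, against 0.05 over all genes, and 0.74 between the unpurified groups, against -0.01. On sorting it was 0.00, as over all genes, and between the purified groups it was -0.10, against -0.02. Each group enters 2 of the 4 pairwise comparisons, so these counts are not independent of each other.

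**Figure D1:**
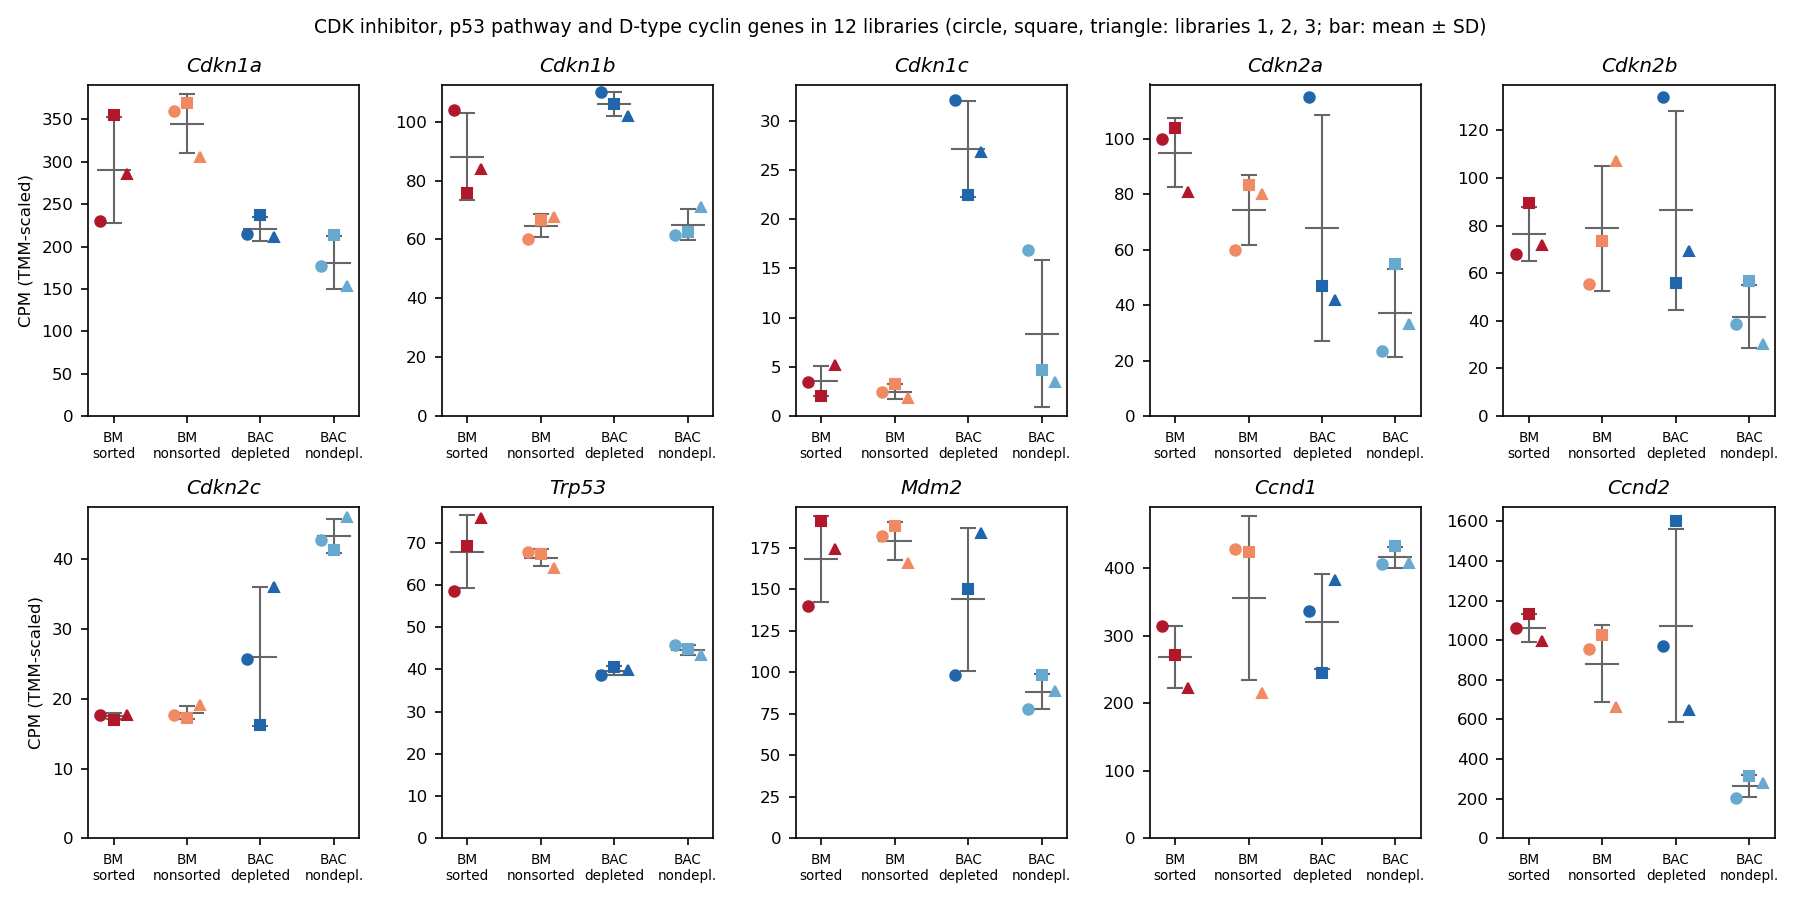
Level of each gene in CPM on TMM-scaled library sizes (y axis, from 0) in the 4 groups (x axis), with a circle, square and triangle for libraries 1, 2 and 3 and a bar for the mean ± SD. Ccnd2 lies at 206 to 314 CPM in BAC nondepleted and at 649 CPM or more in every other library, and Cdkn1c at 22.4 to 32.1 CPM in BAC depleted and at most 16.9 CPM elsewhere.

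**Figure D2:**
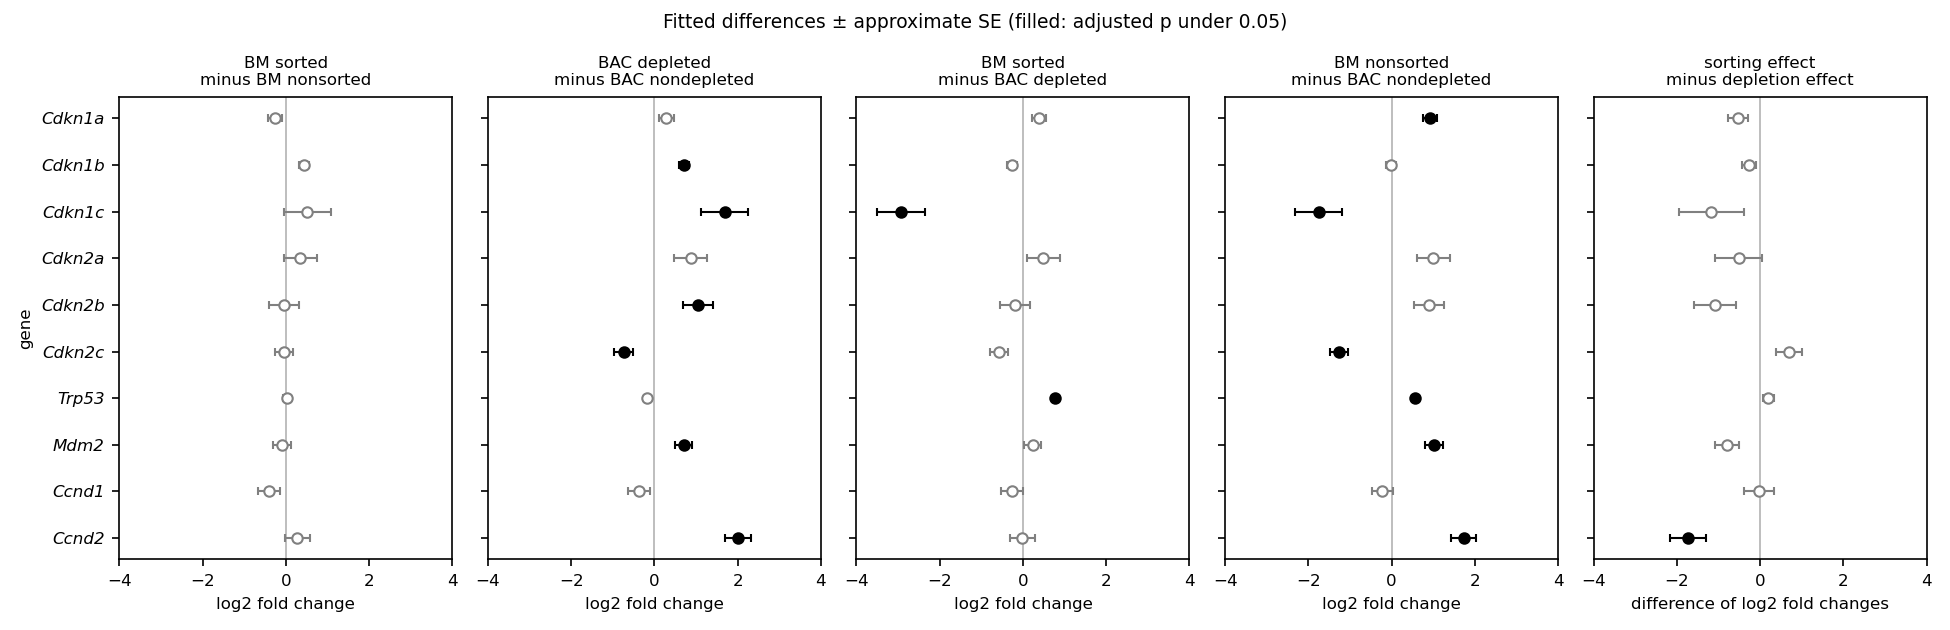
Fitted log2 fold changes (x axis) of the 10 genes (y axis) in 4 comparisons, and in the last panel the difference of the sorting and the depletion effect, with bars of 1 approximate standard error. Filled points passed an adjusted p of 0.05: 0, 6, 2, 6 and 1 genes from left to right.

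Cdkn1b, which encodes p27, an inhibitor that accumulates in resting cells, was higher in the purified cells of both compartments in every library. It stood at 104, 75.8 and 84.0 CPM in BM sorted, against 60.2, 66.5 and 67.5 CPM in BM nonsorted libraries. In BAC depleted it stood at 110, 106 and 102 CPM, against 61.4, 62.6 and 71.0 CPM in BAC nondepleted libraries. The depleted libraries all lay above the nondepleted ones, and the sorted above the nonsorted ones. Depletion raised Cdkn1b by a log2 fold change of 0.71 ± 0.12 (SE, adjusted p = 0.00122 by edgeR), and by 0.66 to 0.77 with any of the 6 libraries left out. The log2 fold change on sorting was 0.44 ± 0.12 and did not pass (adjusted p = 0.0575), but it passed with DESeq2 size factors (0.0449), with upper quartile scaling (0.0374) and without BM sorted 2 (0.0254). The 2 effects differed by -0.26, with a 95% interval of -0.64 to 0.11 and an adjusted p of 0.358 by edgeR. Unpurified marrow and bone cells differed by -0.01, with an interval of -0.27 to 0.26.

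Cdkn1c, which encodes p57, an imprinted inhibitor known for holding stem cells in quiescence, marked the depleted bone cells. Its levels were 32.1, 22.4 and 26.8 CPM in BAC depleted and 16.9, 4.72 and 3.43 CPM in BAC nondepleted libraries. In marrow they were 3.42, 2.07 and 5.18 CPM in BM sorted and 2.43, 3.24 and 1.79 CPM in BM nonsorted libraries. All BAC depleted libraries lay above all others, and BAC nondepleted 1 stood apart from its group. Cdkn1c was lower in BM sorted than in BAC depleted cells by 7.62-fold (log2 fold change -2.93 ± 0.58, adjusted p = 0.00261 by edgeR), and at -3.30 to -2.66 with a library left out. It was higher after depletion by 1.69 ± 0.56 on the log2 scale (adjusted p = 0.0363 by edgeR), a call lost without BAC depleted 1 (0.0821), BAC depleted 3 (0.0600), BAC nondepleted 2 (0.117) or BAC nondepleted 3 (0.0952). Without BAC nondepleted 1 the value was 2.72 (adjusted p = 0.00138 by edgeR). Between the unpurified groups the log2 fold change was -1.75 ± 0.57 (adjusted p = 0.0397 by edgeR), and -0.72 without BAC nondepleted 1 (0.200). That call was also lost without BM nonsorted 1 (0.103), 2 (0.0709) or 3 (0.118).

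Cdkn1a, which encodes p21, the inhibitor induced by p53, was higher in marrow than in bone before purification. It stood at 360, 369 and 305 CPM in BM nonsorted and at 177, 214 and 153 CPM in BAC nondepleted libraries, with no overlap. The log2 fold change was 0.93 ± 0.17 (adjusted p = 0.00406 by edgeR). In the purified cells it stood at 230, 355 and 285 CPM in BM sorted and 215, 237 and 211 CPM in BAC depleted libraries. These ranges overlapped at BM sorted 1, and the log2 fold change of 0.39 ± 0.17 did not pass (adjusted p = 0.0867 by edgeR), except without BM sorted 1 (0.54, 0.0276). The sort and the depletion moved Cdkn1a by -0.25 ± 0.17 and 0.29 ± 0.17 on the log2 scale, and neither passed (adjusted p = 0.601 and 0.217 by edgeR).

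The INK4 genes did not move as a group. Cdkn2a and Cdkn2b, neighbours on one chromosome, had their highest bone level in the same library, and Cdkn2c followed another order. Cdkn2a stood at 100, 104 and 81.0 CPM in BM sorted and 60.1, 83.3 and 80.1 CPM in BM nonsorted libraries. It stood at 115, 46.8 and 41.9 CPM in BAC depleted and 23.6, 54.8 and 33.1 CPM in BAC nondepleted libraries. BAC depleted 1, the library with Xist and without Y-linked counts, stood far above the other libraries of its group. Whether that pattern bears on its levels was not tested. The ranges of the bone groups overlapped. The depletion effect of 0.87 ± 0.40 on the log2 scale did not pass (adjusted p = 0.112 by edgeR), and was 0.26 without BAC depleted 1. BM nonsorted libraries all lay above BAC nondepleted ones, 2.01-fold by the fit, with a 95% interval of 0.12 to 1.89 for the log2 fold change. This did not pass (adjusted p = 0.0796 by edgeR), but did without BAC nondepleted 2 (1.39, 0.0457), by the DESeq2 Wald test (0.98, 0.0451) and with only the groups compared (1.03, 0.0449). Between the purified groups the value was 0.49 ± 0.40 (adjusted p = 0.333), and 1.10 without BAC depleted 1, when it passed (0.0192).

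Cdkn2b, which encodes p15, an inhibitor known to be induced by TGF-beta, stood at 134, 55.7 and 69.3 CPM in BAC depleted, against 38.5, 56.6 and 30.4 CPM in BAC nondepleted libraries. Again BAC depleted 1 was the highest, and BAC depleted 2 lay just under BAC nondepleted 2. Cdkn2b was called higher after depletion (1.05 ± 0.36 on the log2 scale, adjusted p = 0.0433 by edgeR). The call was lost without BAC depleted 1 (0.58, 0.175), BAC nondepleted 1 (0.98, 0.117) or BAC nondepleted 3 (0.85, 0.135). In marrow Cdkn2b stood at 68.2, 89.4 and 71.7 CPM in BM sorted and 55.5, 73.7 and 107 CPM in BM nonsorted libraries, which overlapped. Within a library, Cdkn2b made 40.4% to 47.0% of the counts of Cdkn2a plus Cdkn2b in BM sorted, 46.9% to 57.3% in BM nonsorted, 53.9% to 62.3% in BAC depleted and 47.9% to 62.1% in BAC nondepleted. This share does not depend on library scaling, and it stayed within 53.9% to 62.3% in BAC depleted although the highest and lowest library there differed 2.74-fold in Cdkn2a and 2.41-fold in Cdkn2b.

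Cdkn2c, which encodes p18, an INK4 inhibitor also known to limit the renewal of blood stem cells, was highest in the undepleted bone cells. It stood at 25.7, 16.2 and 36.0 CPM in BAC depleted and 42.8, 41.3 and 46.0 CPM in BAC nondepleted libraries. In marrow it stood at 17.7, 17.0 and 17.7 CPM in BM sorted and 17.6, 17.3 and 19.1 CPM in BM nonsorted libraries. The nondepleted libraries lay above all others, and the 6 marrow libraries spanned only 17.0 to 19.1 CPM. Depletion lowered Cdkn2c (-0.74 ± 0.22 on the log2 scale, adjusted p = 0.0236 by edgeR), a call lost without BAC depleted 1 (0.0570), BAC nondepleted 1 (0.0527) or BAC nondepleted 3 (0.0625). Without BAC depleted 3 the fall was -1.06, and without BAC depleted 2 it was -0.49. BM nonsorted cells were lower than BAC nondepleted cells by -1.27 ± 0.22 (adjusted p = 0.00290 by edgeR), at -1.31 to -1.23 with a library left out. The purified groups differed by -0.57 ± 0.22 (adjusted p = 0.0540 by edgeR), and by -0.82 without BAC depleted 2 (0.00113). This difference also passed with DESeq2 size factors (-0.59, 0.0470), the DESeq2 Wald test (-0.59, 0.0319) and the stricter filter (-0.58, 0.0489). Macrophage markers were also highest in the BAC nondepleted libraries, and their part in these levels of Cdkn2c was not tested.

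Trp53 separated marrow from bone with the closest replicates of the 10 genes in bone (coefficient of variation 2.54% in BAC depleted and 2.57% in BAC nondepleted). Its levels were 58.6, 69.3 and 75.9 CPM in BM sorted and 38.6, 40.6 and 39.9 CPM in BAC depleted libraries. They were 67.8, 67.3 and 64.1 CPM in BM nonsorted and 45.7, 44.8 and 43.4 CPM in BAC nondepleted libraries. Every marrow library lay above every bone library. The log2 fold change was 0.78 ± 0.09 between the purified groups (adjusted p = 0.000169 by edgeR) and 0.57 ± 0.09 between the unpurified ones (0.00214). With any 1 library left out the values were 0.69 to 0.88 and 0.55 to 0.60. Neither purification passed for Trp53. The sort gave 0.03, with a 95% interval of -0.17 to 0.24. The depletion gave -0.17, with an interval of -0.38 to 0.04, though the depleted libraries all lay under the nondepleted ones. A processed copy listed as Trp53-ps held at most 20 counts in a library, so its reads are few beside the 957 or more of Trp53.

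Mdm2 had the same order of group means as Cdkn1a, with BM nonsorted highest, then BM sorted, BAC depleted and BAC nondepleted. It stood at 140, 191 and 174 CPM in BM sorted and 182, 188 and 166 CPM in BM nonsorted libraries. It stood at 98.2, 150 and 184 CPM in BAC depleted and 77.7, 98.5 and 88.9 CPM in BAC nondepleted libraries. BM nonsorted libraries all lay above BAC nondepleted ones, by 1.02 ± 0.21 on the log2 scale (adjusted p = 0.00590 by edgeR). BAC depleted 1, the library with the most Cdkn2a, had the least Mdm2 of its group and overlapped BAC nondepleted 2. Depletion raised Mdm2 (0.70 ± 0.21, adjusted p = 0.0223 by edgeR), a call lost without BAC depleted 2 (0.0507), BAC depleted 3 (0.0748), BAC nondepleted 1 (0.0842) or BAC nondepleted 3 (0.0600). The purified groups differed by 0.23, with a 95% interval of -0.23 to 0.68. In neighbouring places of the order of means the libraries of Mdm2 overlapped, and so did those of Cdkn1a.

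The cyclin D genes behaved differently from each other. Ccnd2, which encodes cyclin D2, had the largest difference on depletion among the 10 genes. It stood at 970, 1604 and 649 CPM in BAC depleted and 206, 314 and 278 CPM in BAC nondepleted libraries. In marrow it stood at 1060, 1134 and 995 CPM in BM sorted and 954, 1027 and 661 CPM in BM nonsorted libraries. The nondepleted bone libraries were the only ones under 649 CPM. Depletion raised Ccnd2 by 4.04-fold (2.01 ± 0.32 on the log2 scale, adjusted p = 0.000803 by edgeR), and by 1.60 to 2.27 with a library left out. BM nonsorted was above BAC nondepleted by 1.73 ± 0.31 (adjusted p = 0.00333 by edgeR). BM sorted and BAC depleted differed by -0.02, with a 95% interval of -0.69 to 0.66. This difference was 0.39 without BAC depleted 2 (adjusted p = 0.228), and its sign changed under 5 of the alternatives.

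Ccnd1, which encodes cyclin D1, the D-type cyclin most often linked to mitogen signals, did not pass in any comparison. It stood at 336, 245 and 383 CPM in BAC depleted and 406, 433 and 408 CPM in BAC nondepleted libraries, which did not overlap. It stood at 314, 271 and 223 CPM in BM sorted and 429, 424 and 215 CPM in BM nonsorted libraries. BM nonsorted 3 was the lowest of the 12 for Ccnd1 and the lowest marrow library for Ccnd2. The 95% interval of the log2 fold change was -0.98 to 0.17 on sorting, -0.95 to 0.20 on depletion, -0.83 to 0.32 between the purified and -0.80 to 0.35 between the unpurified groups. Ccnd2 made 62.9% to 86.7% of the counts of Ccnd1 plus Ccnd2 in BAC depleted, against 33.7% to 42.0% in BAC nondepleted libraries. In marrow the share was 77.1% to 81.7% in BM sorted and 69.0% to 75.5% in BM nonsorted libraries. These shares are of reads, which also depend on transcript length, so they compare groups and not the amounts of the 2 cyclins.

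The mixed cultures also hold macrophages, and the sums of macrophage markers moved with each purification as given above. In bulk RNA, fewer cells of a type and less RNA per cell cannot be told apart. The part of the removed cells in the differences on sorting and on depletion was not tested. BAC nondepleted libraries held more of the macrophage markers (13875 to 15797 CPM) than BM nonsorted libraries (5540 to 6279 CPM). Whether this bears on the differences between the unpurified groups was not tested.

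Among the 5 lists of pathway and cell-state genes, proliferation markers had the median furthest from 0 on depletion. The lists that follow were chosen with earlier results of these data known, and are described by counts and medians. Over all genes, 6.23% were called on sorting, 37.3% on depletion, 47.4% between the purified groups and 31.7% between the unpurified groups. For the difference of the effects the share was 8.06%. All 16 markers fell after depletion, with a median log2 fold change of -2.73 against 0.05 over all genes. Mcm3, a subunit of the replicative helicase, stood at 9.35, 14.0 and 9.46 CPM in BAC depleted and 56.6, 46.3 and 38.7 CPM in BAC nondepleted libraries. The groups were apart for Mcm3, with a log2 fold change of -2.11 ± 0.24 (adjusted p = 9.69e-05 by edgeR), and Mcm6, another subunit, gave -1.72 ± 0.20 (0.000107). On sorting edgeR called 0 of 16 (0 at an unadjusted p under 0.05), DESeq2 called 0, and so did every other alternative. All 16 were higher in BM sorted than in BAC depleted cells (median 3.46), led by the cyclin A gene Ccna2 (4.01 ± 0.42, adjusted p = 8.66e-05) and the checkpoint kinase gene Bub1 (4.37 ± 0.46, 9.35e-05). Between the unpurified groups 2 were higher in BM nonsorted, Cdc20 (1.61 ± 0.35, adjusted p = 0.00795 by edgeR) and Plk1 (1.39 ± 0.43, 0.0321). This count was 1 with any library left out, and 1 to 11 under the other settings. The sorting and the depletion effect differed for 13 of 16, all with a higher value for the sort, among them Ccna2 (3.10 ± 0.54, adjusted p = 0.0102 by edgeR) and Bub1 (3.32 ± 0.59, 0.0108), and for 6 or 7 without BM sorted 3, BM nonsorted 1, 2 or 3, or BAC nondepleted 1 or 2.

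Summed over the 16 markers, BAC depleted libraries held 97.1, 207 and 132 CPM, against 827, 665 and 632 CPM in BAC nondepleted libraries. BM sorted held 766, 816 and 1105 CPM and BM nonsorted 1052, 1048 and 902 CPM. Cdkn1b, Cdkn1c, Cdkn2b and the cyclin gene Ccnd2 had their highest group means in BAC depleted, where these sums were lowest. Of these genes, only Cdkn1c was called between the purified groups. For Ccnd2 the means were 1074 CPM in BAC depleted and 1063 CPM in BM sorted (adjusted p = 0.978 by edgeR). For Cdkn2b they were 86.4 and 76.4 CPM (0.711), with BAC depleted 1 at 134 CPM. The inhibitor genes Cdkn1a and Cdkn2a had lower means in BAC depleted than in either marrow group. Ccnd2 reached its highest level, 1604 CPM, in BAC depleted 2. A link between these levels and the sums was not tested. Cdkn2c was at 16.2 CPM in BAC depleted 2, near the marrow libraries, and at 25.7 and 36.0 CPM in the other two.

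**Figure D3:**
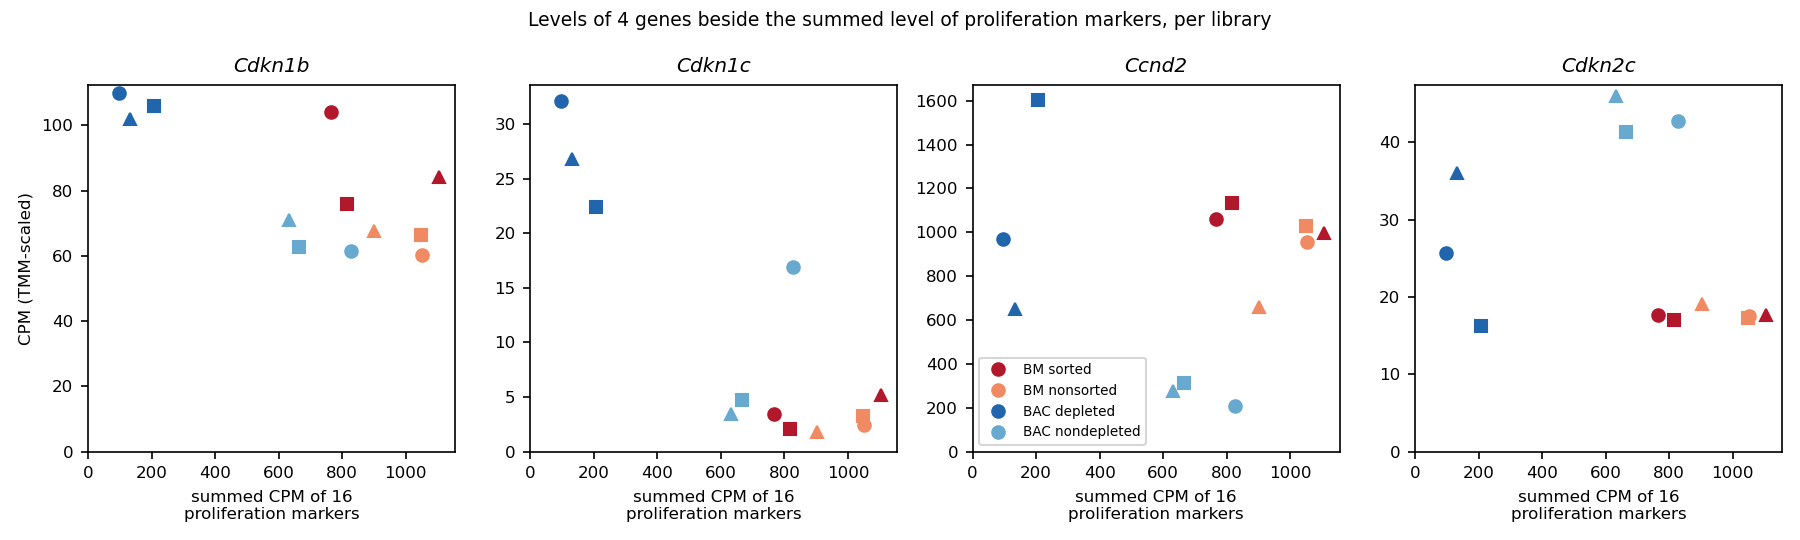
Levels of Cdkn1b, Cdkn1c, Ccnd2 and Cdkn2c in CPM (y axes, from 0) beside the summed CPM of 16 proliferation markers (x axes, from 0), 1 point per library, with a circle, square and triangle for libraries 1, 2 and 3. The 3 BAC depleted libraries lie at 97.1 to 207 CPM on the x axis and the other 9 at 632 CPM or more.

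The G1 and Rb pathway list fell in part on depletion. Of 18 genes 11 fell, 1 rose and 6 did not pass, with a median of -0.58 against 0.05 over all genes. E2f2, which encodes an activating E2F factor, had a log2 fold change of -3.37 ± 0.26 (adjusted p = 5.95e-06 by edgeR), and Cdk6, a partner kinase of the D cyclins, one of -1.82 ± 0.23 (0.000188). The gene that rose was Rbl2, which encodes p130, the retinoblastoma relative that represses E2F genes in resting cells (0.75 ± 0.11, adjusted p = 0.000623 by edgeR). Rbl2 stood at 111, 101 and 106 CPM in BAC depleted and 63.0, 67.6 and 57.7 CPM in BAC nondepleted libraries, with no overlap.

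On sorting the same pair, E2f2 and Cdk6, were the 2 genes of the list that fell, and 16 did not pass (median -0.07). E2f2 stood at 1.48, 1.17 and 1.01 CPM in BM sorted and 6.12, 4.96 and 4.54 CPM in BM nonsorted libraries. Cdk6 stood at 13.4, 17.4 and 12.2 CPM in BM sorted and 60.3, 52.1 and 38.7 CPM in BM nonsorted libraries. Neither gene's groups overlapped. The log2 fold changes were -2.09 ± 0.25 for E2f2 (adjusted p = 0.000260 by edgeR) and -1.81 ± 0.23 for Cdk6 (0.000406). Macrophage markers fell on sorting too, and the part of macrophages in the fall of E2f2 and Cdk6 was not tested. Between BM sorted and BAC depleted, 10 of the 18 were higher and 1 lower (median 0.57). Skp2, which encodes the ubiquitin ligase subunit that targets p27, was higher in BM sorted (2.42 ± 0.19, adjusted p = 2.67e-05 by edgeR), as was the phosphatase gene Cdc25a (1.58 ± 0.17, 0.000105). Rbl2 was lower in BM sorted (-1.56 ± 0.12, 2.24e-05). Skp2 stood at 23.9, 23.7 and 31.0 CPM in BM sorted and 5.18, 5.76 and 3.67 CPM in BAC depleted libraries. Between the unpurified groups 5 were higher and 2 lower in BM nonsorted (median 0.03), where 31.7% of all genes were called. Skp2 (1.11 ± 0.18, adjusted p = 0.00197 by edgeR) and Cks1b, which encodes its cofactor (1.01 ± 0.20, 0.00559), were higher, and Rbl2 (-0.72 ± 0.11, 0.00185) and E2f2 (-0.84 ± 0.23, 0.0219) were lower. The sorting and the depletion effect differed for 5 of the 18, 4 of them with a higher value for the sort, among them Skp2 (1.31 ± 0.25, adjusted p = 0.0149 by edgeR) and the kinase gene Cdk2 (0.76 ± 0.18, 0.0345). Rbl2 had a lower value for the sort (-0.85 ± 0.16, 0.0139). The 4 were 7 without BAC depleted 2, 1 to 3 without any 1 other library, 9 by the DESeq2 Wald test and 2 with the replicate number as a block.

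The p53 targets other than Cdkn1a and Mdm2 were higher in marrow than in bone more often than lower. Of 24 genes, 17 were higher and 2 lower in BM nonsorted than in BAC nondepleted, with a median of 1.24 against -0.01 over all genes. Eda2r, a death receptor gene of the TNF receptor family, stood at 48.9, 58.6 and 67.8 CPM in BM nonsorted and 5.87, 6.80 and 3.66 CPM in BAC nondepleted libraries (3.42 ± 0.27 on the log2 scale, adjusted p = 0.000113 by edgeR). Ccng1, which encodes cyclin G1, stood at 781, 822 and 751 CPM and at 197, 231 and 192 CPM in the same groups (1.93 ± 0.18, adjusted p = 0.000189 by edgeR). Both genes were apart in every library. The 2 that were lower were Gadd45a, a growth arrest gene (-1.36 ± 0.32, 0.0110), and Sesn1, which encodes the stress sensor sestrin 1 (-0.86 ± 0.21, 0.0128). The number lower was 1 without BM nonsorted 2 and 4 with only the groups compared.

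Between BM sorted and BAC depleted, 14 of the 24 targets were higher and 5 lower (median 0.74 against -0.02). Bax, a trigger of apoptosis, was higher in BM sorted (0.93 ± 0.10, adjusted p = 9.71e-05 by edgeR), as was the death receptor gene Tnfrsf10b (0.96 ± 0.13, 0.000334). Rrm2b, which encodes a ribonucleotide reductase subunit used for DNA repair, was lower (-1.39 ± 0.11, 2.93e-05), with 16.9, 18.3 and 15.5 CPM in BM sorted and 45.3, 48.1 and 39.7 CPM in BAC depleted libraries. Sesn1 was lower too (-1.53 ± 0.21, 0.000364). With a library left out, 11 to 13 were higher and 5 lower.

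Depletion raised 11 of the 24 targets and lowered 3, with 10 not passing (median 0.66). Rrm2b rose (1.15 ± 0.11, adjusted p = 2.68e-05 by edgeR), as did Phlda3, an inhibitor of AKT (1.31 ± 0.15, 0.000111), while Sesn1 (-0.79 ± 0.21, 0.0147) and the kinase gene Plk2 (-1.09 ± 0.30, 0.0170) fell. The number raised was 10 to 14 and the number lowered 1 to 3 with a library left out, 1 without BAC depleted 1 or BAC nondepleted 2. Sorting changed 1 of 24, Sesn1, which stood at 20.9, 13.5 and 14.6 CPM in BM sorted and 40.0, 40.2 and 54.8 CPM in BM nonsorted libraries (-1.46 ± 0.21, adjusted p = 0.00130 by edgeR). The sorting and the depletion effect differed for 4 of 24, all with a lower value for the sort, among them Rrm2b (-1.18 ± 0.15, 0.00287) and Phlda3 (-1.18 ± 0.21, 0.0111), and for 7 by the DESeq2 Wald test.

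**Figure D4:**
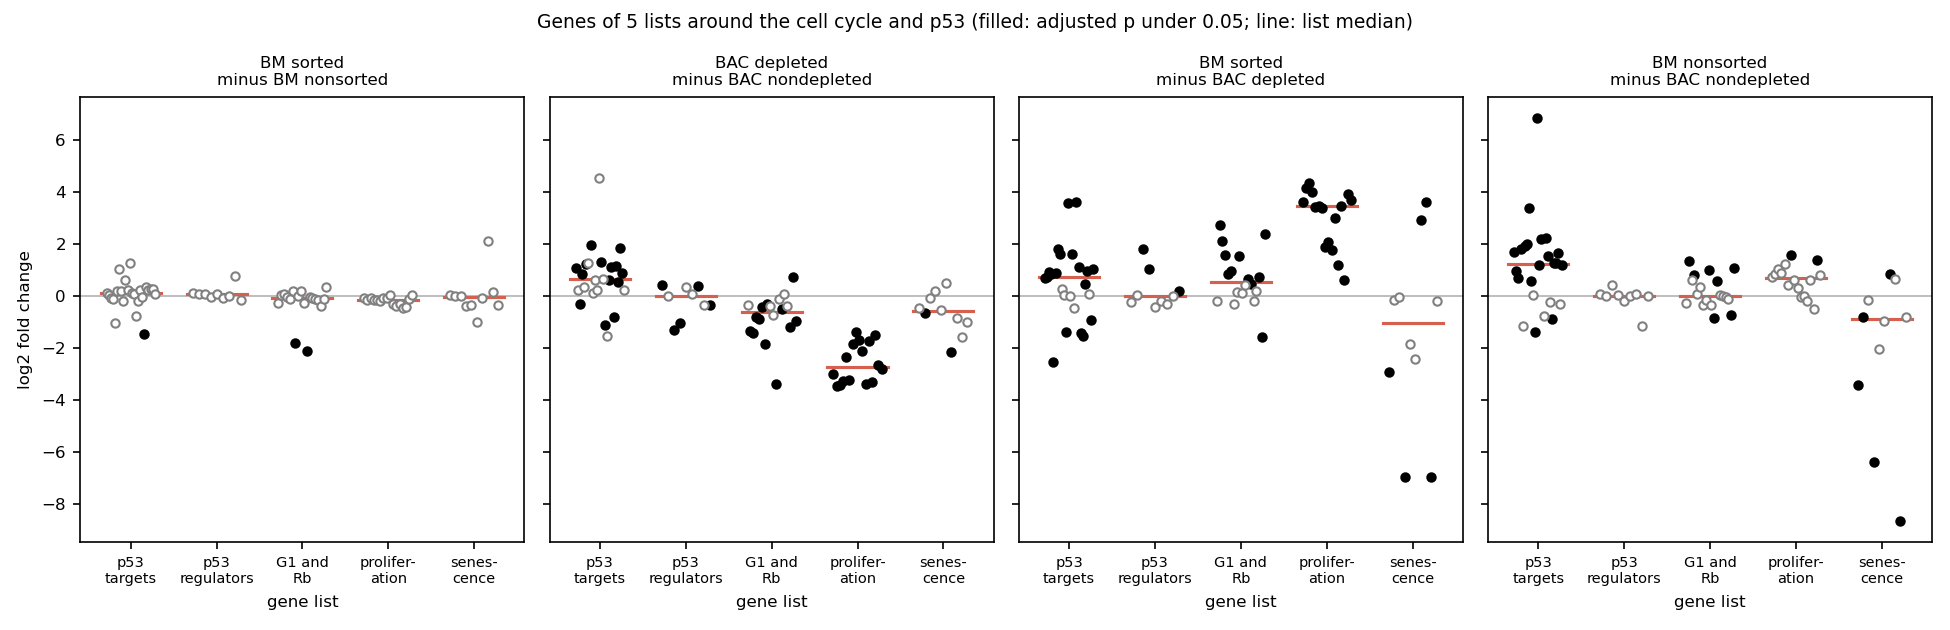
Log2 fold changes (y axis) of the tested genes of 5 lists (x axis) in 4 comparisons, 1 point per gene, filled where the adjusted p is under 0.05, with a line at the list median. Proliferation markers lie under 0 on depletion (median -2.73) and above 0 between the purified groups (median 3.46), while p53 targets between the unpurified groups have a median of 1.24.

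Of 10 genes that regulate p53 or are related to it, 9 were tested, and Trp73 was too low. On sorting and between the unpurified groups edgeR called 0 of 9 (0 at an unadjusted p under 0.05), and every alternative, DESeq2 included, called 0. Depletion raised 2, the kinase gene Atm (0.43 ± 0.13, adjusted p = 0.0239 by edgeR) and Trp53bp1 (0.40 ± 0.13, 0.0392), which acts at DNA breaks. It lowered 3, among them the checkpoint kinase genes Chek1 (-1.29 ± 0.21, 0.000934) and Chek2 (-1.04 ± 0.17, 0.000887). The 2 rises were 0 without BAC depleted 1, BAC nondepleted 1 or BAC nondepleted 2, and 0 with no filter. Between the purified groups 3 were higher in BM sorted, among them Chek1 (1.81 ± 0.21, adjusted p = 0.000130 by edgeR) and Chek2 (1.05 ± 0.17, 0.000706). The effects of sort and depletion differed for 2 genes, Chek1 (1.40 ± 0.29, adjusted p = 0.0194 by edgeR) and Chek2 (0.0292), and for 0 without BM sorted 3.

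Among 10 genes linked to senescence, Lmnb1, which encodes the lamin B1 that senescent cells lose, gave the clearest values. It stood at 5.41, 8.66 and 4.75 CPM in BAC depleted and 38.3, 24.8 and 19.3 CPM in BAC nondepleted libraries, with a log2 fold change of -2.13 ± 0.31 (adjusted p = 0.000528 by edgeR). It was higher in BM sorted (39.1, 42.6 and 63.8 CPM) than in BAC depleted libraries (2.95 ± 0.32, 9.56e-05), and in BM nonsorted than in BAC nondepleted (0.88 ± 0.29, 0.0430), a call lost without BM nonsorted 1, 2 or 3, without BAC nondepleted 2 or 3, with no filter and with the replicate number as a block. Glb1, the gene of the lysosomal beta-galactosidase used as a senescence stain, stood at 89.5, 85.7 and 118 CPM in BAC depleted and 153, 163 and 141 CPM in BAC nondepleted libraries, and fell (-0.64 ± 0.13, 0.00416). Macrophages are rich in lysosomes, and macrophage markers were lost in the same step. The part of macrophages in this fall was not tested.

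On depletion 2 of these 10 genes fell and 0 rose (median -0.58), where 37.3% of all genes were called. Without BAC depleted 2, 4 fell (median -0.89), and 1 rose without BAC nondepleted 2 (median -0.80) or BAC nondepleted 3 (median -0.33). On sorting edgeR called 0 (1 at an unadjusted p under 0.05), while the DESeq2 Wald test called 1 higher. Between the purified groups 2 were higher and 3 lower in BM sorted (median -1.0), where 47.4% of all genes were called. The median was -0.16, with 2 lower, without BAC depleted 2, and -0.52 with the replicate number as a block. The collagenase gene Mmp13 was higher (3.62 ± 0.66, adjusted p = 0.00160 by edgeR), and the stromelysin gene Mmp3 (-6.93 ± 1.20, 0.00121) and Igfbp3, an IGF-binding protein gene (-6.96 ± 1.29, 0.00180), were lower. Between the unpurified groups 1 was higher and 4 lower in BM nonsorted (median -0.87), among them Mmp3 (-8.66 ± 1.27, 0.00145) and Glb1 (-0.80 ± 0.13, 0.00234). For the difference of the effects, Lmnb1 was the 1 gene called (2.07 ± 0.42, adjusted p = 0.0190 by edgeR). That call was lost without BM sorted 3, BM nonsorted 1 or BM nonsorted 2, while the DESeq2 Wald test called 3 genes of the list, and upper quartile scaling, no filter and the stricter filter 2 each. The list holds secreted factors and nuclear proteins together, and they did not share a direction.

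The pattern over the 12 libraries was compared with that of 10598 other genes with a mean of at least 5 CPM, by the root mean square (RMS) difference of log2 CPM centred on each gene's mean. The closest to Trp53 were Ftsj3, an RNA methyltransferase gene of ribosome assembly (0.05), and Prmt1, a protein arginine methyltransferase gene (0.07), where Trp53 itself had an SD of 0.37. Cdkn1b was closest to Tfcp2 (0.09) and Zfp930 (0.10), with an SD of 0.34. Ccnd2 was closest to the growth factor gene Gdf11 (0.26) and the adenylate kinase gene Ak1 (0.31), with an SD of 0.93. Cdkn2c was closest to Pdlim4 (0.20) and Retreg2 (0.21), with an SD of 0.60. For Cdkn1a the closest were Map3k6 (0.15) and Fam222b (0.17), for Mdm2 Dlg1 (0.16) and Lmtk2 (0.18), and for Ccnd1 Lipo3 (0.22) and Ubl3 (0.23). Cdkn1c was closest to Usp11 (0.50) and Ecm2 (0.57), with an SD of 1.51. Cdkn2a was closest to Zfp324 (0.26) and Zfp87 (0.32), and Cdkn2b to Maoa (0.28) and Zbtb37 (0.28).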

How the data were processed

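STAR 2.7.9a, featureCounts, Subread 2.0.1, MultiQC 1.7 and the genome build GRCm39 are named in the submitters' processing notes. An annotation release and a strand setting are not given there, which leaves overlapping and antisense genes uncertain. The deposited table holds raw counts per gene for 12 libraries, 3 in each of 4 groups, with 27937709 to 32164725 counts each. Per the labels' protocols, libraries were made from total RNA with a low-input kit.

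From these counts edgeR 4.0.16 in R 4.3.3 was run on all 12 libraries with TMM scaling, filterByExpr and a robust quasi-likelihood F test on a mean per group (8 residual degrees of freedom), with Benjamini-Hochberg adjustment over 15698 genes. Standard errors are approximate, from the log2 fold change over the root of its F statistic. The fit was tested on simulated data with genes changed in BM sorted only, so recovery was not simulated for the depletion or between the unpurified groups. Entries listed by gene ID, with no symbol, held at most 0.0297% of a library's counts and were kept. As alternatives, scaling was by DESeq2 size factors or the upper quartile, and the test was the Wald test of DESeq2 1.42.0. Others were no or a stricter filter, only the groups compared, the replicate number as a block, and each library left out.

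The 10 genes and all lists were chosen with earlier results of these data known. From each of 5 further lists up to 2 genes called in each direction with the smallest adjusted p were named, plus the 2 most alike genes per member. Whether libraries of a group came from different animals or dishes is not in the labels. In BAC depleted, library 1 held 43406 counts of Xist and 0 of the Y-linked genes. BAC depleted 2 and 3 held 7545 and 9398 Y-linked counts, so the libraries of that group did not all come from the same animal. The p-values reflect only how these libraries vary, and that may be technical. Within groups, libraries differed by more than sampling noise (chi-square of at least 16.8 per degree of freedom), so none was counted as a repeat sequencing of another. This cannot show that they came from separate animals or dishes.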

Additional observations from a re-analysis of the deposited data

Results flagged for a closer look

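Ccnd2 was the 1 of the 10 genes for which the sorting and the depletion effect differed. Its log2 fold change on sorting was lower than that on depletion by a difference of -1.74 ± 0.43 (SE, adjusted p = 0.0376 by edgeR), with 0.27 ± 0.30 on sorting and 2.01 ± 0.32 on depletion. All BAC depleted libraries lay above all BAC nondepleted ones, while BM sorted and BM nonsorted libraries overlapped. The difference did not pass when the test was run without a low-count filter (adjusted p = 0.0541). It also did not pass without BM sorted 1 (0.0709), 2 (0.0780) or 3 (0.101), without BM nonsorted 1 (0.0830) or 2 (0.0935), or without BAC nondepleted 1 (0.0859), 2 (0.0628) or 3 (0.0675), with values of -1.98 to -1.33 over all libraries left out.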

How the results depend on the processing

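On sorting, 0 of the 10 genes were called and 1, Cdkn1b, with DESeq2 size factors, upper quartile scaling or the DESeq2 Wald test (0 to 1 with a library left out). On depletion 6 were called, 2 with only the groups compared and 2 to 5 with a library left out. Between the purified groups 2 were called, 3 with DESeq2 size factors, the DESeq2 Wald test or the stricter filter, and 2 to 4 with a library left out. Between the unpurified groups 6 were called, 8 by the DESeq2 Wald test (Cdkn2a and Cdkn2b gained), and 5 to 7 with a library left out, and for the difference of the effects 1, 0 without a low-count filter and 0 to 2 with a library left out. No called value changed sign under any alternative. Values near 0 that changed sign were, with upper quartile scaling, Cdkn2b (0.03) and Cdkn2c (0.04) on sorting, Ccnd2 between the purified groups (0.01) and Cdkn1b between the unpurified groups (0.01). Without a filter they were Ccnd2 between the purified groups (0.02) and Ccnd1 for the difference of the effects (0.06), and with only the groups compared Cdkn1b between the unpurified groups (0.02). With a library left out the ranges that crossed 0 were, on sorting, -0.25 to 0.24 (Cdkn2b), -0.06 to 0.13 (Trp53) and -0.17 to 0.03 (Mdm2). Between the purified groups they were -0.41 to 0.29 (Cdkn2b) and -0.28 to 0.39 (Ccnd2), and between the unpurified groups -0.05 to 0.06 (Cdkn1b) and -0.38 to 0.04 (Ccnd1). For the difference of the effects they were -0.90 to 0.09 (Cdkn2a) and -0.29 to 0.14 (Ccnd1). The cause was not tested. With the replicate block the counts were 0, 5, 2, 5 and 1, the calls of Cdkn2b on depletion (adjusted p = 0.0779) and of Cdkn1c between the unpurified groups (0.0739) were lost, Ccnd2 between the purified groups was 0.06, and that fit changed no other call of the 10 genes. Same-numbered libraries were not taken as pairs: their deviations from the group means correlated at -0.22 to 0.24, over 0.1 in 3 of 12 pairs, and 5 of 12 matched best on their own number. Over all genes, depletion called 5863 and 3556 with only the groups compared. The difference of the effects called 1266, 2450 with the DESeq2 Wald test, 808 with the block and 437 to 1612 with a library left out, and the unpurified comparison called 4980 and 2949 to 4188 with a library left out. With 3 libraries a group and the spread of BAC depleted, a gene that was not called may still differ by values within its interval. No limit of detection was computed.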
